A study of Mus musculus with 2 samples.

Results

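Piles of long-read alignments were described in 8 windows of the mouse genome. These hold tandem repeats, a ribosomal DNA segment and, in 1 window, no tandem repeat found and no annotated ribosomal DNA. The windows were selected on the alignment counts measured in these same libraries, so the counts are given as a description and no test was made on them. An alignment was counted if it overlapped a window by at least 1 bp. The library of the II1 T-DOM 542 allele had 105 of its 3658 reads in the windows, listed in 547 of 4218 alignments. The library of the II1 T-DOM 320 allele had 98 of 7790 reads there, listed in 153 of 8424 alignments.

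The study inserted a transgene with the II1 limb enhancer and a LacZ reporter into T-DOM, a regulatory domain beside the HoxD cluster, and recovered the founder lines 542 and 320. Genomic DNA came from yolk sacs of B6CBAF1 embryos at E12.5 that carried 1 of these alleles, II1 T-DOM 542 or II1 T-DOM 320, obtained from crosses of heterozygous adults and given no treatment. It was sequenced after Cas9 cutting around the insertion (nCATS) with the SQK-LSK109 nanopore kit, with 1 library per allele. There is therefore no replicate check, and a difference between the libraries cannot be told apart from a difference between the alleles. Shares are given with 95% Clopper-Pearson intervals, which cover counting error only, and a count of 0 also with the share that 3 reads would make. Intervals for shares of alignments treat the alignments of 1 read as independent, so they can be too narrow.

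Mouse centromeres are flanked by long arrays of the major satellite, an AT-rich tandem repeat, and the genes of the ribosomal RNAs stand in tandem arrays on several chromosomes. Genome builds hold only a small part of such arrays. Mapping quality, the score an aligner gives to the placement of an alignment, falls where a read fits several places equally well.

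The reference sequence under part of the piles is shown first, since the windows differ in the unit that repeats. All sequences are from mm10. At chr2:147250313-147250471, plus strand, in an intron of Nkx2-2os, the transcript antisense to Nkx2-2, capitals mark a span that 2 of the 6 alignments have, while 2 others begin 1 bp later and end at the same base.
Nkx2-2os window: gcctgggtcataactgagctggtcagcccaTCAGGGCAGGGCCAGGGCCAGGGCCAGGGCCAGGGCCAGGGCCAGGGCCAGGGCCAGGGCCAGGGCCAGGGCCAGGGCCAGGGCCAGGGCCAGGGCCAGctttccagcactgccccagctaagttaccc
At chr11:103907550-103907719, plus strand, in an intron of Nsf, the ATPase of vesicle fusion, capitals mark words of TTGTTG.
Nsf window: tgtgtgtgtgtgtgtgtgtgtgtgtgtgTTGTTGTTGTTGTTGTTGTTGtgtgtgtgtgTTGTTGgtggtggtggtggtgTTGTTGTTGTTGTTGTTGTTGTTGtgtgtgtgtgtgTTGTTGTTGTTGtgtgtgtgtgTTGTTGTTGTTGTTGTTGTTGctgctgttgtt

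The window at the start of chromosome 9 carries a much longer unit. Copies of it cover 13.9% of the Gm10800 window of chromosome 2. The unit of the window at the start of chromosome 9 is shown as the copy nearest to the others, at chr9:3014090-3014323 on the plus strand. The copy most like it in the Gm10800 window of chromosome 2 lies at chr2:98667053-98667286 on the minus strand, and its capitals mark the bases that differ from the chromosome 9 copy.
Chromosome 9 copy: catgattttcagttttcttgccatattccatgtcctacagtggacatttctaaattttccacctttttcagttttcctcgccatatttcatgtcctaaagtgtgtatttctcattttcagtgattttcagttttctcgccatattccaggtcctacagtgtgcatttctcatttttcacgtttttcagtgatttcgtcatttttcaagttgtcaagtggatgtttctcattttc
Chromosome 2 copy: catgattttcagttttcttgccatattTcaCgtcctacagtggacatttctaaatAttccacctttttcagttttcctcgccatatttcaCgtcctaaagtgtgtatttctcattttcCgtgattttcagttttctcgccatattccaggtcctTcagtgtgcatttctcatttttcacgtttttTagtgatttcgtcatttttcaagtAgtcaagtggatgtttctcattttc
For the ribosomal DNA segment of chromosome 17 the edges of the aligned stretch are shown on the plus strand, at chr17:39842957-39843037 and at chr17:39848789-39848869. Capitals mark the bases inside the stretch.
Left edge: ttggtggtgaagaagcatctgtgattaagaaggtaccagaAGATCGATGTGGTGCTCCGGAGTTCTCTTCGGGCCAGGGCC
Right edge: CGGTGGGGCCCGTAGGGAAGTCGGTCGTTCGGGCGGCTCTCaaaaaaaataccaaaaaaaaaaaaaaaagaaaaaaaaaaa

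By reads, the windows held a larger part of the 542 library than of the 320 library. In the 542 library they took 2.87% of the reads (interval 2.35 to 3.46), 13.0% of the alignments and 0.997% of the aligned bases. In the 320 library they took 1.26% of the reads (interval 1.02 to 1.53), 1.82% of the alignments and 0.279% of the aligned bases. For alignments of 500 bp or more the shares of reads were 0.890% (interval 0.597 to 1.28) and 0.690% (interval 0.512 to 0.908). At a mapping quality of 30 or more they were 0.743% (interval 0.482 to 1.1) and 0.398% (interval 0.267 to 0.572). The limit of 500 bp removed every alignment of the Lama4, Egfem1, Nkx2-2os, Nsf and Kctd16 windows, of which the longest had 389 bp. Under both limits the intervals of the libraries overlap, which is a description and no test. The gap between the share of alignments and the share of bases went with short alignments, of a median 53 bp in the 542 library and 328 bp in the 320 library. The 542 library held 13445067 aligned bases in all and the 320 library 74659491.

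Window alignments differed from those of the reads outside the windows in length, in mapping quality and in the number per read. Of the window alignments in the 542 library 94.7% were shorter than 500 bp, against 9.80% of the alignments of other reads, and in the 320 library the shares were 67.3% and 7.48%. In the 542 library the Lama4 window had the same median length as all window alignments, 53 bp, while the chromosome 9 window had 1295 bp. Mapping quality reached 30 in 6.58% of the 542 window alignments (interval 4.65 to 9.0) and in 92.7% of those of other reads. For the 320 library the shares were 29.4% (interval 22.3 to 37.3) and 92.2%. The 542 value moved with the Lama4 window, which gave 361 of the 547 alignments: it was 17.7% without that window, 3.66% without the Egfem1 window and 10.3% for alignments of 500 bp or more. Counted over reads by their best alignment, the shares were 23.8% (interval 16 to 33.1) and 29.6% (interval 20.8 to 39.7). Several alignments in 1 window were found for 41.0% of the 542 window reads (interval 31.5 to 51.0) and 15.3% of the 320 window reads (interval 8.83 to 24.0). Without the Lama4 window the 542 share was 26.2% (interval 17.2 to 36.9). For alignments of 500 bp or more the count was 0 of 29 reads in the 542 library and 0 of 50 reads in the 320 library. The upper limits of the interval were 11.9% and 7.11%. That length limit removed every alignment of the Lama4, Egfem1, Nsf and Kctd16 windows, so these counts do not describe their reads. Of the other reads, 2.22% in the 542 library and 3.67% in the 320 library were listed more than once anywhere in the genome. These comparisons describe windows chosen for their piles and were not tested.

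Reads listed more than once were counted over the whole genome as well. In the 542 library 48 of the 127 reads with several alignments touched a window, and their window alignments made up 490 of the 687 alignments of such reads (71.3%). Of 309 such reads in the 320 library, 27 touched a window, with 82 of 943 alignments (8.70%). Without the reads of the Lama4 window the 542 share was 39.9% (129 of 323), and without the read of the Egfem1 window the 320 share was 5.49% (50 of 911). All 17 reads with 10 or more alignments anywhere in the genome touched a window in the 542 library, against 5 of 9 in the 320 library. Inside a window of the 320 library only the Egfem1 read reached 10, with 32, and the next highest count was 7.

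**Figure D1:**
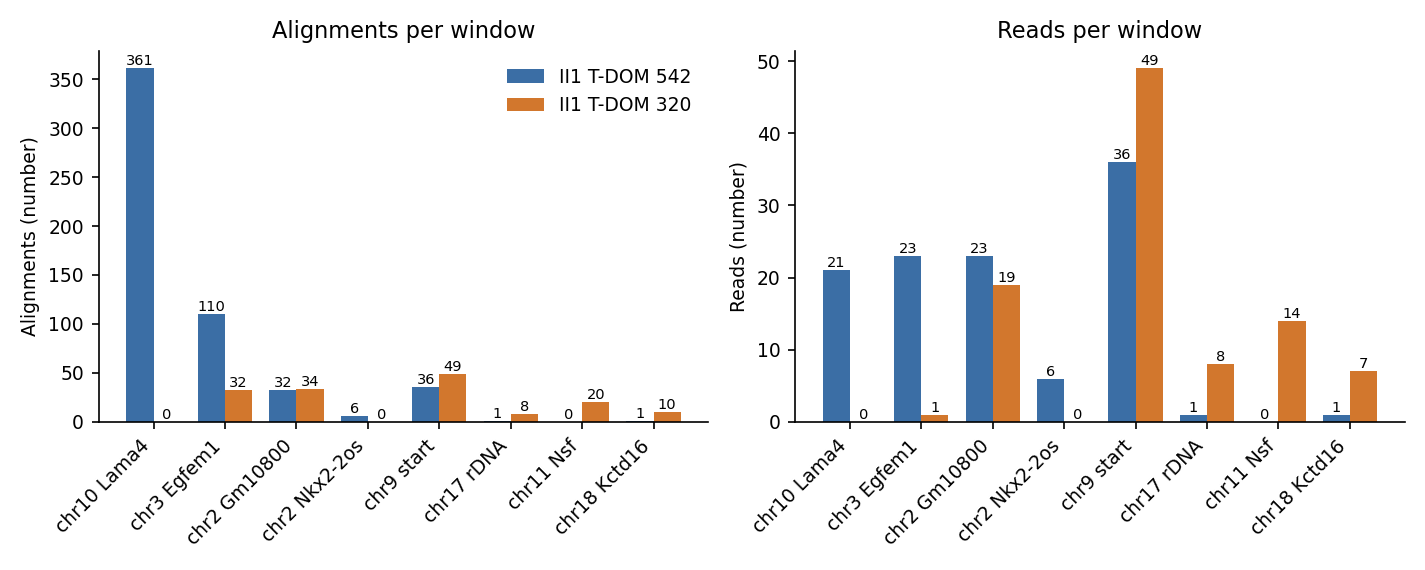
Bars give the number of alignments (left) and of reads (right) in each window, with a colour for each library. By alignments the Lama4 window of the 542 library is highest with 361, while by reads the chromosome 9 window is highest in both libraries, with 36 and 49. Counts are not scaled by window width.

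The order of the windows depended on what was counted, as the plot of alignments and reads by window shows. The Lama4 window came first by alignments in the 542 library, with 361, followed by the Egfem1 window with 110. By reads, the chromosome 9 window came first, with 36 in the 542 library and 49 in the 320 library. That window is 40001 bp wide, against 3001 bp for the Lama4, Egfem1 and Nsf windows and 10001 bp for the Gm10800 window. Counts were not scaled by width. The Gm10800 window held 23 reads in the 542 library and 19 in the 320 library. The Lama4 and Nkx2-2os windows were filled in the 542 library alone, and the Nsf window in the 320 library alone. The Lama4 window held 0.574% of the 542 reads (interval 0.356 to 0.876) and 0 of 7790 reads of the 320 library, which allows a share of up to 0.0385% by 3 reads and 0.0473% by the interval. For the Nsf window the 542 library had 0 of 3658 reads, which allows a share of up to 0.0820% by 3 reads and 0.101% by the interval, and the 320 library had 0.180% (interval 0.0983 to 0.301). In the Nkx2-2os window 6 of 3658 reads made 0.164% of the 542 library (interval 0.0602 to 0.357), and the 320 library had 0 of 7790 there, with the same limits as for Lama4. By the interval the limits of the libraries overlap for Nsf and not for Lama4 and Nkx2-2os. The windows were selected on these counts, so none of these differences was tested. Only the chromosome 9 and Gm10800 windows held more than 10 reads in each library.

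The pile in an intron of Lama4, the laminin alpha chain gene, was the tallest and the narrowest. All 361 alignments lay on the minus strand, with a median of 53 bp and a range of 46 to 60 bp. They came from 21 reads and fell within 64 bp of the reference. Of them, 313 had both ends within 2 bp of the most frequent start and end. Each of the 21 reads was listed several times, with a median of 10 alignments. The read with the most was listed 88 times in the window, all on the minus strand and with 4641 aligned bases in all. When the alignments of a read were sorted by position, 308 of 340 neighbouring starts were at the same base, so that the same short stretch was used again and again by 1 read. Mapping quality was 0 or 1 in 220 alignments and 30 or more in 3, and the highest value was 32. Beside these alignments, 3 of the 21 reads had 1 alignment each elsewhere, on chromosomes 3 and 4.

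In Egfem1, a gene named for its EGF-like and EMI domains, the 542 library held 110 alignments of 23 reads. All lay on the plus strand, with a median length of 197 bp and a range of 137 to 205 bp. The read with the most alignments had 18, with 3414 aligned bases. Of these alignments 72 had both ends within 2 bp of the most frequent span, in an intron of the gene. The 320 library had a single read in this window, but it was listed 32 times on the plus strand, with 6228 aligned bases and the same median of 197 bp. That read alone gave 32 of the 153 window alignments of the 320 library. Without this window the share of plus-strand alignments in the 320 library was 50.4%, against 60.8% with it. Mapping quality was 30 or more in 20 of the 110 alignments of the 542 library and in 9 of the 32 of the 320 library.

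The Nkx2-2os window was tied to the Egfem1 window through its reads. It held 6 alignments of 6 reads in the 542 library, all on the minus strand and 85 to 99 bp long. All 6 reads were also listed in the Egfem1 window, on the plus strand. No other pair of windows shared a read in either library. On the strand of the alignments CCCTGG made up 93.7% of the 6-base words in the Nkx2-2os stretch, in any register.

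**Figure D2:**
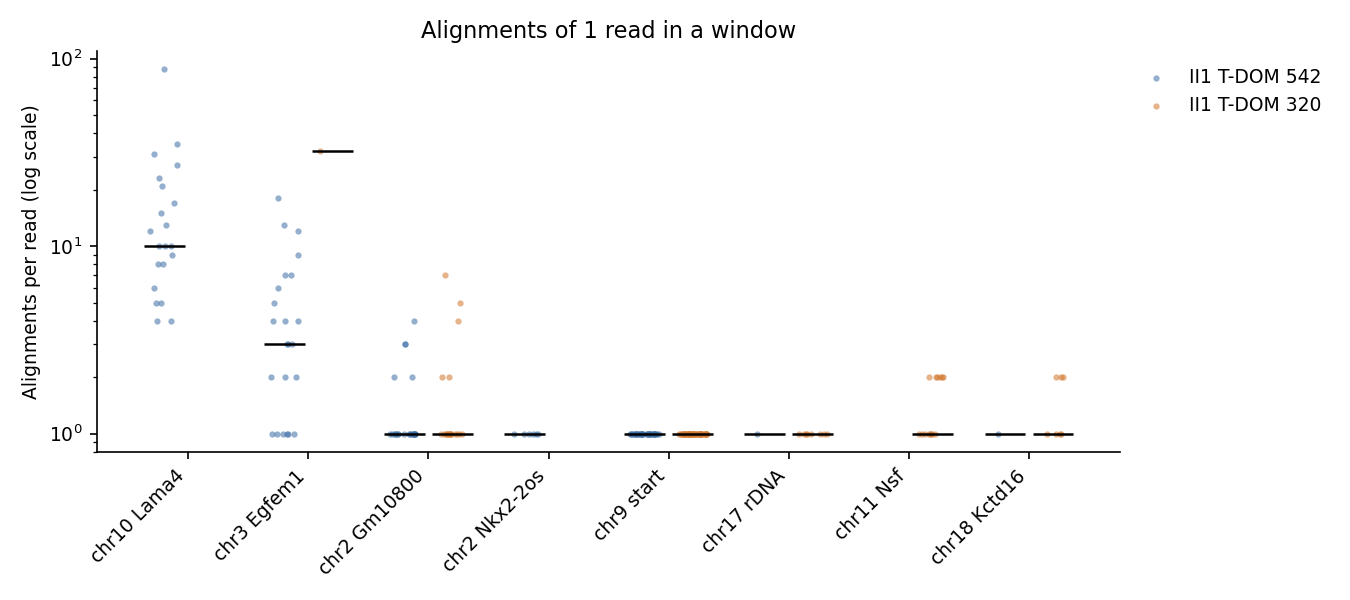
Each point is a read, placed by its number of alignments in a window (log scale), and black lines are medians. Reads of the Lama4 window have a median of 10 alignments and those of the Egfem1 window a median of 3 in the 542 library, while all reads of the chromosome 9 window have 1.

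The plot of alignments per read shows higher medians in the Lama4 and Egfem1 windows than in the chromosome 9, Gm10800 and ribosomal DNA windows. Single reads of the Lama4 and Egfem1 windows overlap with those of Gm10800. The fewest alignments of a Lama4 read in the window were 4. In the 542 library 17 of 23 Egfem1 reads had more than 1 alignment in the window. All 36 reads of the 542 library and all 49 of the 320 library had 1 alignment in the chromosome 9 window. In the Gm10800 window 5 of 23 reads in the 542 library and 5 of 19 in the 320 library had more than 1, and the highest were 4 and 7. The chromosome 17 window had 1 alignment per read throughout.

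The chromosome 9 window lies at the first assembled bases of that chromosome and holds the major satellite. Shifting the reference of the window against itself gave the most matching bases at 234 bp, with 69.4%, against a median of 31.1% over shifts from 10 to 1000 bp. Smaller peaks stood at 58 bp, with 55.4%, at 118 bp, with 49.0%, and at 176 bp, with 51.0%, that is at about 0.25, 0.5 and 0.75 of the unit. The window held 148 copies of the printed unit at 80% identity or more, all on the plus strand. They covered 86.5% of the window, with a median identity of 95.7%. The annotation places 11 genes there, among them the lincRNA gene Gm26870 and the predicted protein-coding genes Gm10717 and Gm11168.

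**Figure D3:**
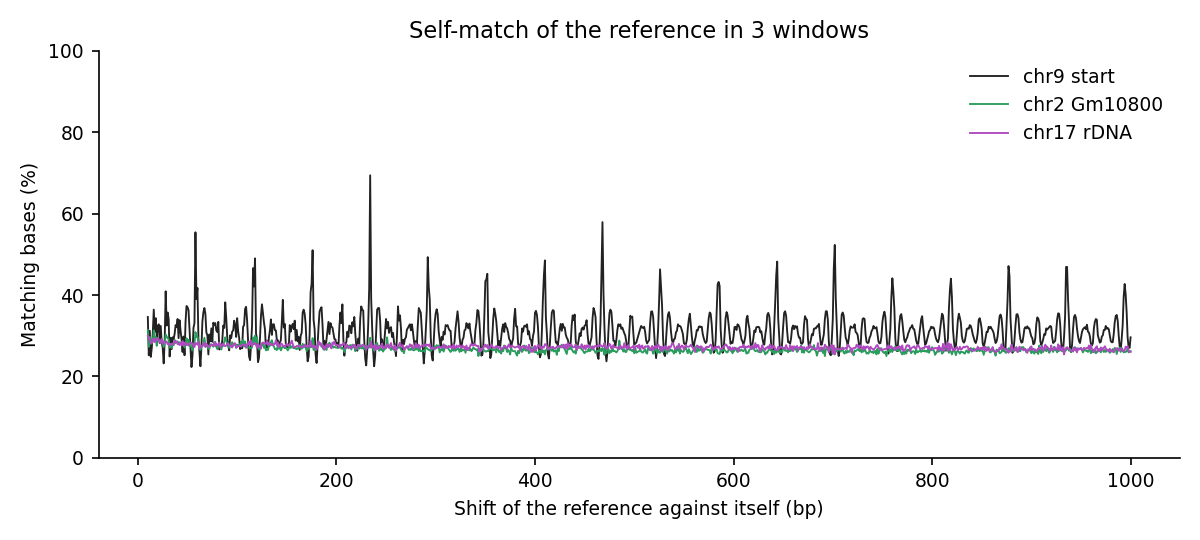
Lines give the share of matching bases (%) when the reference of a window is shifted against itself by 10 to 1000 bp, in the chromosome 9, Gm10800 and ribosomal DNA windows. The chromosome 9 window peaks at 234 bp with 69.4%, and the Gm10800 and ribosomal DNA windows have no shift above 31.4%.

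The chromosome 9 window held the longest single alignment of the 8 windows in each library. Median lengths there were 1295 bp in the 542 library and 2117 bp in the 320 library. For alignments of reads outside the windows the medians were longer, 2225 bp and 5594 bp. The longest alignment of the window covered 38410 bp in the 320 library and 16322 bp in the 542 library. Mapping quality was 0 or 1 in 24 of 36 alignments in the 542 library and in 26 of 49 in the 320 library, and it reached 30 in 1 and 6. Reads lay on both strands, with 24 of 36 on the plus strand in the 542 library and 18 of 49 in the 320 library. Over both libraries 42 of 85 were on the plus strand (49.4%, interval 38.4 to 60.5). Starts were spread over the unit. With the printed copy divided into 4 equal pieces, the starts of the 542 library numbered 7, 11, 13 and 5, and those of the 320 library 8, 12, 17 and 12.

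**Figure D4:**
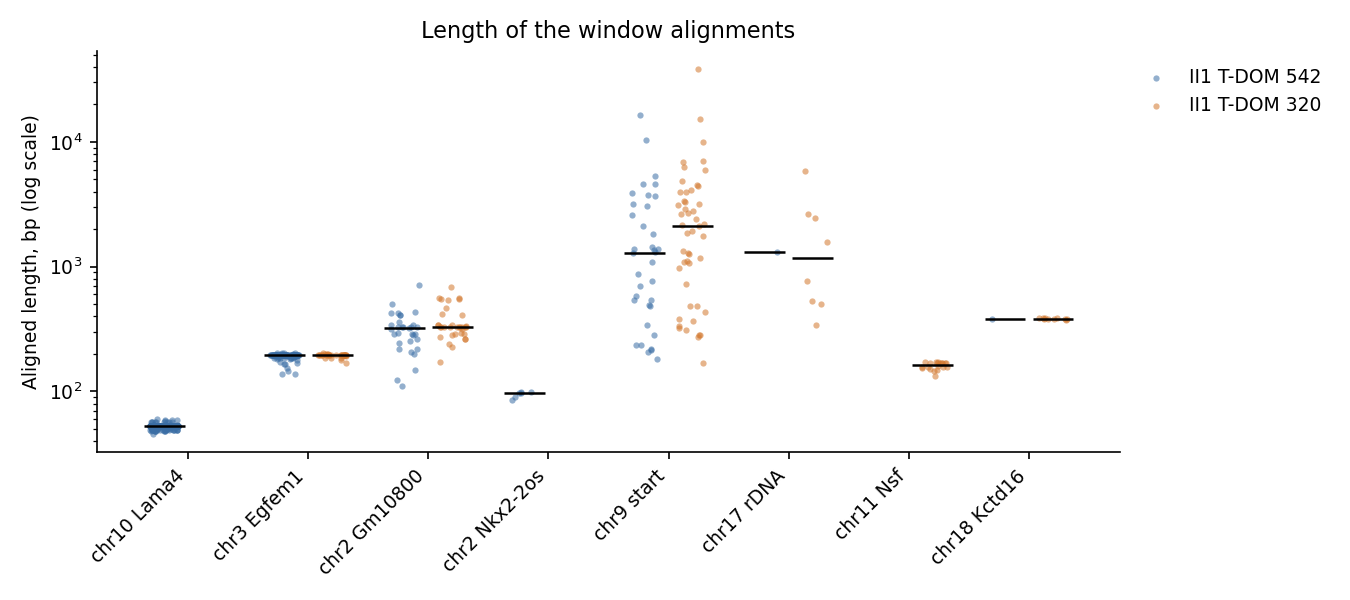
Each point is an alignment, placed by its length in bp (log scale), and black lines are medians. Lengths of the Lama4 window stay between 46 and 60 bp, while those of the chromosome 9 window run from 170 to 38410 bp over both libraries.

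The Gm10800 window holds pieces of the same satellite. There were 6 copies of the chromosome 9 unit at 80% identity or more, of 84.2% to 96.6% identity, which covered 13.9% of the window. The 3 copies on the left lie on the plus strand and the 3 on the right on the minus strand, so that the satellite stands there in inverted pieces. The printed copy had 8 substitutions against the chromosome 9 copy and no gain or loss of bases. Gm10801 on the left and Gm10800 on the right, both predicted protein-coding genes, have exons in the aligned stretch. Of the 32 alignments of the 542 library 22 touched a copy, and 16 lay on copies for at least 50% of their length. Of the 34 of the 320 library 24 touched a copy and 12 lay mostly on copies. Some reads were split between the sides: 4 of the 542 library and 3 of the 320 library had alignments to the left and to the right of the middle of the window. The most frequent span was the same in both libraries, 98662500 to 98662827, with 4 alignments within 2 bp of both ends in the 542 library and 10 in the 320 library. This span lies mostly off the satellite, with 47 of its 328 bp on a copy. Distinct 12-base words shared between windows were counted, with their share of the smaller word set of the pair. The Gm10800 window shared 357 words with the chromosome 9 window (10.1%). It shared 253 with the chromosome 17 window (3.17%) and 251 with the Kctd16 window (8.57%). The chromosome 17 and Kctd16 windows shared 169 words with each other (5.77%). No other pair of windows shared more than 25 words (0.856%). Median alignment lengths in the Gm10800 window were 320 bp and 328 bp. Mapping quality reached 30 in 9 of 32 alignments and 15 of 34. No read was shared with the chromosome 9 window.

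**Figure D5:**
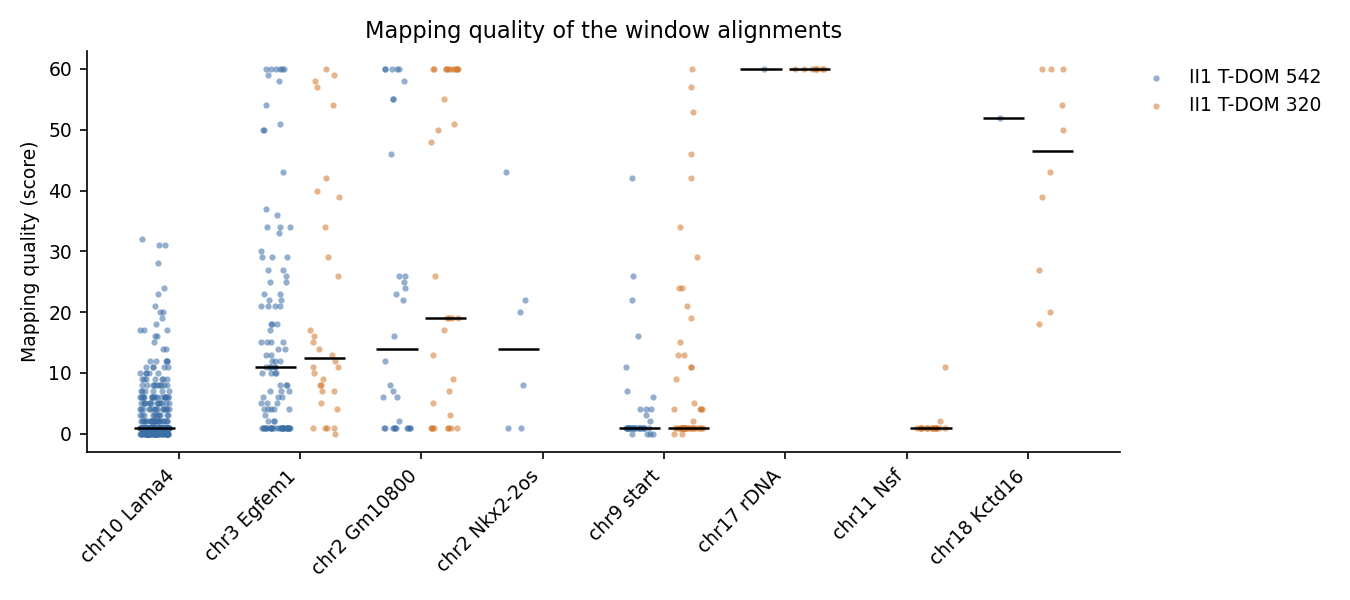
Each point is an alignment, placed by its mapping quality (a score from 0 to 60), and black lines are medians. The Lama4 window does not exceed 32 and the Nsf window does not exceed 11, while all alignments of the chromosome 17 window are at 60.

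The chromosome 17 window holds a ribosomal DNA segment, which the annotation covers with the rRNA gene CT010467.1 and the lincRNA genes Gm26917, Gm42418 and AY036118. RefSeq places Rn18s-rs5, a pseudogene of 18S ribosomal RNA, at 39846354 to 39848202. Unlike in the repeat windows, all alignments had a mapping quality of 60, with 1 in the 542 library and 8 in the 320 library. The best shift over the 5833 bp stretch with the alignments gave 30.3% matching bases, against 69.5% over the 174 bp stretch of the Nsf window, and a repeat in a small part of the longer stretch could be missed by this measure. The alignment of the 542 library and 5 of the 8 of the 320 library ended at the same base, 39848829. That base is the last capital of the right edge shown above, where GC-rich sequence meets a run of A. On the left 2 alignments of the 320 library began at 39842997, the first capital of the left edge. The longest alignment spanned the whole stretch between these bases, 5833 bp. The 1 read of the 542 library and 3 of the 8 of the 320 library were also listed elsewhere, and over both libraries the 9 reads touched 9 other places.

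The Nsf window was found in the 320 library alone, with 20 alignments of 14 reads. All lay on the plus strand, with a median length of 164.5 bp and a range of 134 to 171 bp. The most frequent span was the printed 170 bp, and 10 alignments had both ends within 2 bp of it. Mapping quality was 0 or 1 in 18 of 20 and did not exceed 11. Of the 14 reads 6 had 2 alignments in the window, and 4 were also listed elsewhere. On the strand of the alignments TTGTTG in any register made up 43.8% of the 6-base words and TGTGTG 29.6%.

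The window in an intron of Kctd16, a gene for an auxiliary subunit of GABA-B receptors, showed no tandem repeat over the 389 bp stretch with the alignments, where the best shift gave 32.5% matching bases. It held 1 alignment in the 542 library and 10 alignments of 7 reads in the 320 library, of 374 to 389 bp. In the 320 library 9 of 10 alignments ended at the same base, 40308403, and 3 of the 7 reads had 2 alignments in the window, the most of any. All 8 reads of both libraries were also listed elsewhere, in 66 further alignments on 14 chromosomes in the 320 library and 6 on 5 chromosomes in the 542 library. Their other alignments fell on 26 places, of which 9 were used by 3 or more of the 8 reads. The place used most, chr11:54140029-54140719, was shared by 7 reads. In 6 of the 26 places reads of the chromosome 17 window were aligned too, all through the same Kctd16 read, but no read lay in both windows.

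Strand differed between the windows. Over both libraries the Lama4 and Nkx2-2os windows had 0 plus-strand reads of 21 and of 6, and the Egfem1 and Nsf windows had all of 24 and of 14 on the plus strand. The upper limit of the interval was 16.1% for Lama4 and the lower limit was 85.8% for Egfem1. Reads on both strands were found in the 4 windows with satellite, ribosomal DNA or Kctd16 sequence. For reads outside the windows the plus-strand share of alignments was 50.3% (542 library) and 49.3% (320 library).

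Near matches of the guides of the protocol were searched in the windows as well. SCS12, SCS13 and SCS14 had 0 sites in the 8 windows when 5 mismatches were allowed beside an NGG PAM, and no window read was also listed at the insertion region. Places outside the windows were ranked by their alignments as well. In the 542 library the 3000 bp tile with the most alignments, on an unplaced scaffold of the build, had 15 alignments of 15 reads whose median length was 3373 bp, and 7 lay on the plus strand. Mapping quality there had a median of 1 in both libraries, and the sequence of the tile was not examined. Over both libraries, 1 read of the chromosome 9 window and 1 of the Gm10800 window also had an alignment on that scaffold across the tile. The same tile had 29 alignments of 29 reads in the 320 library, 10 of them on the plus strand, where the first tile of the mitochondrial genome came before it with 33 alignments of 32 reads. By reads, the scaffold tile exceeded the Nkx2-2os, chromosome 17, Nsf and Kctd16 windows in the 542 library. In the 320 library both tiles exceeded, by reads, every window except that of chromosome 9. That window is 40001 bp wide, against 3000 bp for a tile. By alignments, the Gm10800 window of the 320 library, with 34, also exceeded both tiles. The Egfem1 window, with 32, exceeded the scaffold tile there.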

How the data were processed

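Per the Methods and Reporting Summary, base calling by the authors used Guppy 5.0.16, followed by minimap2 2.15 to place the reads on mm10, samtools 1.10 to filter for primary alignments and bedtools 2.27.1 to write the tables. The deposited score is the mapping quality of the alignment, from 0 to 60. The tables hold no flags, so primary and supplementary alignments cannot be told apart. A read is listed up to 89 times, more than a filter to 1 primary alignment per read would leave, so counts of alignments are not counts of reads.

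Counts, intervals and plots were made with pandas 2.3.3, scipy 1.17.1, numpy 2.4.6 and matplotlib 3.10.9 under Python 3.11.15, and satellite copies were searched with edlib 1.3.9.post1. Coordinates count from 1 on mm10. The sequence of some windows is not reported here. Sequences came from GRCm38 patch release 6, and genes from GENCODE M21 and RefSeq. No alignment on its chromosomes ended past them (0 of 12305). Periods were searched at shifts of 10 to 2000 bp. The period, copy and guide searches were tested on simulated data. The simulated repeats had longer units than the Lama4, Egfem1, Nkx2-2os and Nsf stretches, and a multiple of the period was accepted. Short units were thus not tested. All 8 windows are named, genes only where annotation overlaps them, and in each window the read with the most alignments. The members and lists were chosen with earlier results of these data known. Alternatives changed the unit counted, mapping quality, length, overlap, width, windows and measure of the period. Leaving out the Egfem1 window, leaving out the Lama4 window for the share of reads and for reads listed more than once, and shifts from 2 bp were chosen after seeing the data.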

Additional observations from a re-analysis of the deposited data

How the results depend on the processing

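Of 49 alternatives for the shares, 25 gave a value within the 95% interval of the value reported. Not counted are 5 that left the Lama4 window out of the 320 library, where it was empty. The share of reads in the windows, 2.87% in the 542 library and 1.26% in the 320 library, was 13.0% and 1.82% by alignments and 0.997% and 0.279% by aligned bases. It was 0.743% and 0.398% at a mapping quality of 30 or more and 0.890% and 0.690% for alignments of 500 bp or more. In the 542 library it was 2.30% without the Lama4 window. Reads with several alignments in 1 window, 41.0% and 15.3%, were 0% in both libraries for alignments of 500 bp or more. That limit left out the Lama4, Egfem1, Nsf and Kctd16 windows. In the 542 library they were 26.2% without the Lama4 window and 29.5% without the Egfem1 window. Mapping quality of 30 or more, 6.58% in the 542 library, was 23.8% over reads by their best alignment, 10.3% for alignments of 500 bp or more, 17.7% without the Lama4 window and 3.66% without the Egfem1 window. The plus-strand share of 26.9% in the 542 library was 52.3% with the longest alignment per read and window, 79.0% without the Lama4 window and 8.47% without the Egfem1 window. In the 320 library it moved from 60.8% to 50.4% without the Egfem1 window. For reads listed more than once, the share of alignments in the windows, 71.3% and 8.70%, was 39.9% in the 542 library without the reads of the Lama4 window, and 66.3% and 5.49% without those of the Egfem1 window.

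The repeat unit was 234 bp under every alternative in the chromosome 9 window. In Egfem1 and Nkx2-2os the best shift was 12 bp over the window, by words and over the stretch with the alignments. In the remaining windows it depended on the measure. Over the stretch the best shift matched 94.4% of bases in Egfem1, 94.3% in Nkx2-2os, 84.6% in Lama4 and 69.5% in Nsf. In Gm10800, the ribosomal DNA and Kctd16 the best shift matched 35.1%, 30.3% and 32.5% there and is not read as a repeat unit. By distances between identical 12-base words it moved from 20 to 12 bp in Lama4, from 10 to 234 bp in Gm10800, from 10 to 14 bp in the ribosomal DNA, from 12 to 55 bp in Nsf and from 18 to 10 bp in Kctd16. Over the stretch with the alignments it was 12 bp in Lama4, 58 bp in Gm10800, 139 bp in the ribosomal DNA, 79 bp in Nsf and 78 bp in Kctd16. With shifts from 2 bp over that stretch it was 6 bp in Lama4, Egfem1, Nkx2-2os and Nsf, down from 12 bp in Egfem1 and Nkx2-2os. It was 58 bp, 4 bp and 78 bp in Gm10800, the ribosomal DNA and Kctd16. The shift of 6 bp matched 86.2% of bases in Lama4, 95.6% in Egfem1, 94.7% in Nkx2-2os and 81.0% in Nsf. Shifts below 10 bp were outside the other searches.

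No paired analysis was possible because each allele had 1 library and no test was made. Between 0 and 49 reads a window limit the precision of each value.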
